A study of Mus musculus with 7 samples.

Results

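The G2 and mitosis genes are a set of 33 mouse genes, of 28786 in the deposited count table, whose products carry a cell from the end of DNA replication through chromosome segregation to cytokinesis. They were taken from a list of gene symbols and not chosen by a measured value in these libraries, although the list was drawn up with earlier results of the same table known. All 33 were found in the table and all 33 passed the filter on low counts. Their levels were compared between hematopoietic stem cells (HSCs), the bone marrow cells that give rise to the blood lineages, of control mice and of mice with MC38 tumours. MC38 is a colon carcinoma cell line of C57BL/6 origin that grows as a tumour in that strain. Across the 6 libraries used, the 33 genes held between 21 and 1961 reads each.

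Transcripts of this set accumulate late in the cell cycle and are low in resting cells, so that most stem cells at rest hold few of them. In resting and early cycling cells the DREAM complex represses these genes, and later B-MYB and FOXM1, bound to the same MuvB core, activate them. Many of their promoters hold a cell cycle genes homology region (CHR), the element that MuvB binds, together with CCAAT boxes, which NF-Y binds. In bone marrow, the set is used as a sign of cycling progenitors.

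The series set out to learn how a tumour biases HSCs towards myeloid output. Both groups were C57BL/6J mice, 6 to 8 weeks old when the marrow of femora and tibiae was collected, and they differed in the labels only by tumour status. Each library was made from polyadenylated RNA of 1500 sorted cells. The sort gates, the site and age of the tumour, and the animals behind each library are not stated in the sources used here, so p-values measure the spread between libraries, which may be technical.

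The 2 control libraries held 12131546 and 12306066 counts, and the 4 MC38 libraries between 13368238 and 17657037. Control column 3 was left out, because its values were tied to those of the other controls: the median ratio to their sum was 0.353 across 9652 genes, and 95% of them lay between 0.341 and 0.371. For the 33 genes that ratio ran from 0.342 to 0.379. The HSC list, which holds Slamf1, Procr, Hlf and Fgd5 beside Kit, Cd34, Flt3 and Cd48, does not part HSCs from progenitors. Its 14 genes were all detected. Their summed level was 2039 and 2178 CPM in control (counts scaled to a common library total) and 1952 to 2183 CPM in MC38 libraries. None of the 14 passed the edgeR test, while DESeq2 called 1 lower, where it called 2.59% of 15209 genes lower, and 1 higher. Every MC38 library lay above both controls for 5 of the 14 and below for 1, against 14.0% and 15.0% of all genes tested. The purity of the sort and the share of HSCs were not tested. A list of 12 neutrophil genes was high in every library, at 32329 to 33068 CPM in control and 56634 to 64989 CPM in MC38 libraries. The libraries thus held granule transcripts beside those of the HSC list. In bulk RNA, fewer cells of a type and less RNA per cell cannot be told apart.

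Transcripts of 5 of the 33 genes fell in MC38 and none rose. The 5 were Ccnb1 and Ccnb2, the B-type cyclins that activate CDK1 at mitotic entry, Birc5, which encodes survivin of the chromosomal passenger complex, Kifc1, a minus-end-directed spindle motor, and Top2a, the topoisomerase that untangles replicated chromosomes. The fold difference ran from 1.54 for Top2a to 7.78 for Kifc1. Over all 14226 genes tested with edgeR's quasi-likelihood test at an adjusted p under 0.05, 81 were lower (0.569%) and 148 were higher (1.04%). The other 28 members of the set did not pass.

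Most of the set lay below the control level. The fitted log2 fold change of MC38 over control was below 0 in 28 of 33 genes, against 49.1% of all genes tested, and its median was -0.51, against 0.01 over all genes. For 19 of the 33 genes, 57.6%, every MC38 library lay below both controls, a pattern that 15.0% of all genes showed. The opposite pattern, every MC38 library above both controls, was found for 0 of the 33 and for 14.0% of all genes. At an unadjusted edgeR p under 0.05, 15 of the 33 were lower and 0 higher, while 8.22% of all genes were lower at that p. DESeq2 called 8 of the 33 lower, where it called 2.59% of 15209 genes lower, and added Ube2c, Cdca8 and Nusap1 to the 5. Summed over the set, the level was 1530 and 1453 CPM in control replicates 1 and 2, and 1040, 1090, 1075 and 984 CPM in MC38 replicates 1 to 4. Both controls stood above all 4 MC38 libraries, and the ratio of the means was 0.702.

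The calls changed when single libraries were left out. Without control replicate 1, 0 of the 33 genes were called by edgeR, and without control replicate 2 only Kifc1 was called. Without MC38 replicate 2, Ccnb2 and Kifc1 were called, and without MC38 replicate 4, Ccnb1, Ccnb2 and Kifc1. The 5 calls were all present without MC38 replicate 1 or without MC38 replicate 3. Without control replicate 1 or 2, the log2 fold change of Ccnb1 was -1.26 or -1.36, against -1.31 with all 6 libraries. These values were -1.004, -1.09 and -1.05 for Ccnb2, and -0.76, -0.79 and -0.78 for Birc5. They were -0.64, -0.59 and -0.62 for Top2a, and -2.66, -3.21 and -2.96 for Kifc1. Fits without a control replicate hold 1 control, so a call lost there cannot be laid to the library left out.

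**Figure D1:**
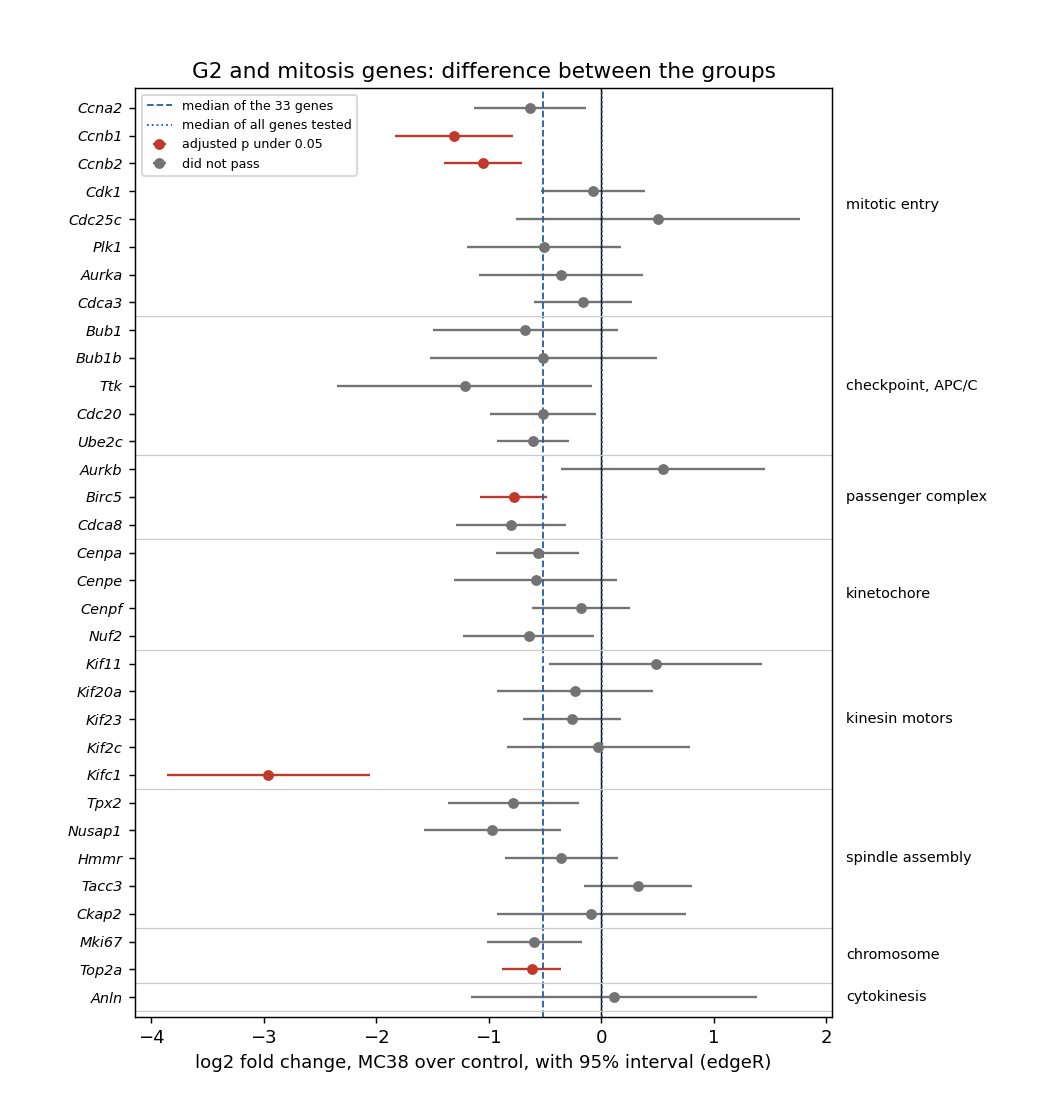
Fitted log2 fold change of MC38 over control (horizontal axis, edgeR) for each of the 33 genes, grouped by role, with 95% intervals. Red points are the 5 genes with an adjusted p under 0.05, the dashed line is the median of the set at -0.51, and the dotted line the median of all genes tested at 0.01.

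The promoters of the 5 called genes are shown because many promoters of the set hold CHR elements and CCAAT boxes, and these 5 differ in which they hold. Sequences are from RefSeq on GRCm38.p6, run 5′ to 3′ in the sense of the gene, and cover 250 bases before the annotated start and the first 12 bases after it. Capitals mark CHR elements, searched as TTTGAA and TTCGAA, and CCAAT boxes, searched as CCAAT, all on both strands. A match on the other strand therefore reads TTCAAA or ATTGG. The windows lie at chr9:70421543-70421804 on the minus strand for Ccnb2, chr11:99024178-99024439 on the minus strand for Top2a, chr17:33890622-33890883 on the minus strand for Kifc1, chr13:100786475-100786736 on the minus strand for Ccnb1 and chr11:117848987-117849248 on the plus strand for Birc5.
Ccnb2: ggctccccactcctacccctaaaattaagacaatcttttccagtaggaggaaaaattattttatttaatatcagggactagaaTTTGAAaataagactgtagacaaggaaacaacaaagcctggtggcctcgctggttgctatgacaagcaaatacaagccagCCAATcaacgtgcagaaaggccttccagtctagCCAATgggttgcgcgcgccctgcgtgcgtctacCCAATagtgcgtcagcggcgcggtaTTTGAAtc
Top2a: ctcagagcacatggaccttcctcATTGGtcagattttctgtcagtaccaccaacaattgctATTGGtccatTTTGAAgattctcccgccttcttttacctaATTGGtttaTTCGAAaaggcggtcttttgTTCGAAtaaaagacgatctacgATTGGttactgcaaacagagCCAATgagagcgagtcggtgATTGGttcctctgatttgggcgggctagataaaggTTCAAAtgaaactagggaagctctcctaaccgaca
Kifc1: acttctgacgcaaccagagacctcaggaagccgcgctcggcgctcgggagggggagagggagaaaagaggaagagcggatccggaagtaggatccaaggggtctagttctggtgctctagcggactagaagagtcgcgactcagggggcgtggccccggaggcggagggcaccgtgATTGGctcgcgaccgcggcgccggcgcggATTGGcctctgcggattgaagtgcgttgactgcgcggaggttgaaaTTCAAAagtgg
Ccnb1: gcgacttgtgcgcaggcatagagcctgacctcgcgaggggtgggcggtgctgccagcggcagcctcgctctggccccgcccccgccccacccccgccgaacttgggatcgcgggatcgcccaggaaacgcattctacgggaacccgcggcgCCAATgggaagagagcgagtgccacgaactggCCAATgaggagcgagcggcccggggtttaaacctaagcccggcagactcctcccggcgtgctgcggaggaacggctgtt
Birc5: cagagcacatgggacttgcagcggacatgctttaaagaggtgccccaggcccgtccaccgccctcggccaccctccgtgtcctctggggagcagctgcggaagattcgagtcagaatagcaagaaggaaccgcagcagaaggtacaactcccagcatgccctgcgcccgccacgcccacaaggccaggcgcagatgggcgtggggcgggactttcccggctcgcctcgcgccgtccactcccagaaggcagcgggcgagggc

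Ccnb2 held 2 CHR elements and 3 CCAAT boxes, one CHR starting 4 bases after the start of the gene. Top2a held 4 CHR elements and 6 CCAAT boxes, the most CHR elements of any promoter in the set. Kifc1 held 1 CHR element and 3 CCAAT boxes, the last of them beyond the printed stretch. In Ccnb1 there were 2 CCAAT boxes and no match to either CHR form, but 1 match to TTTAAA, another form of the element, which is printed in lower case. Birc5 held no CHR and no CCAAT box in this window, and 1 match to TTTAAA. Of the 5 genes that fell, 3 thus held a match to TTTGAA or TTCGAA in the window, and 2 held only the TTTAAA form.

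RefSeq gave a promoter for 28 of the 33 genes, and the counts of matches use a window of 300 bases, 250 before and 50 after the start. A CHR was found in 22 of the 28 promoters, 78.6%, and in 19.2% of all 32851 promoters of the same length. The share was 70.4% in 71 promoters of other G2 and mitosis genes and 11.4% in 35 promoters of G1/S and replication genes. CCAAT boxes were found in 22 of the 28, against 37.4% of all promoters and 60.0% of the G1/S promoters. Both elements together were found in 20 of the 28, 71.4%, against 7.52% of all promoters. A CHR that starts no more than 50 bases before the start, or after it, was found in 19 of the 28, 67.9%, against 5.31% of all promoters. TTTAAA was found in 8 of the 28, 28.6%, against 13.2% of all promoters. Its share was 9.86% in the promoters of other G2 and mitosis genes and 11.4% in the G1/S promoters. Nuf2, Nusap1 and Tacc3 held none of these motifs. The median log2 fold change was -0.51 over the 22 genes with a CHR match and -0.71 over the 6 without TTTGAA or TTCGAA. Of these 6, Birc5, Ccnb1 and Cenpe held TTTAAA, so the groups do not part genes with and without any form of the element. These matches are a description of the letters in the window and not of binding.

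**Figure D2:**
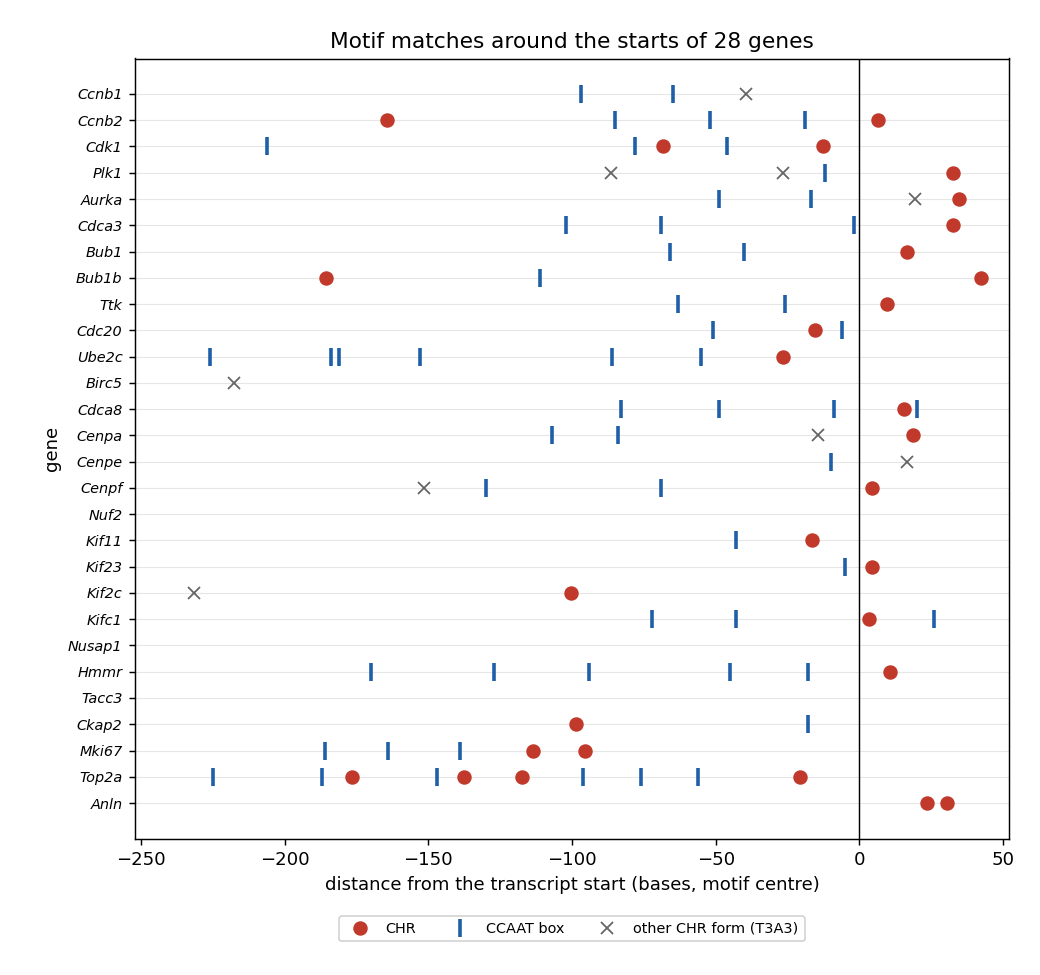
Position of each motif match (horizontal axis, bases from the transcript start to the centre of the motif) in the promoters of 28 of the genes. Circles are CHR elements, bars CCAAT boxes and crosses TTTAAA; CHR matches gather close to the start, and the rows of Nuf2, Nusap1 and Tacc3 are empty.

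Among the 8 genes of mitotic entry, 2 fell and 6 did not pass. Ccnb1 (ENSMUSG00000041431, chromosome 13:100778650-100786570, GRCm38) stood at 42.3 and 39.5 CPM in control replicates 1 and 2, and at 17.0, 15.3, 12.9 and 20.8 CPM in MC38 replicates 1 to 4. The controls lay close together, and the groups did not overlap. Its log2 fold change was -1.31 ± 0.23 (SE, n = 2 and 4), with an edgeR adjusted p of 0.0269. That p was 0.200 or 0.114 when control replicate 1 or 2 was left out, and 0.0909 when MC38 replicate 2 was.

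Ccnb2 (ENSMUSG00000032218, chromosome 9:70407692-70421547) stood at 84.0 and 79.2 CPM in control and at 34.6, 41.8, 42.3 and 39.1 CPM in MC38 replicates 1 to 4. The 4 MC38 libraries lay close together and far under the controls. The log2 fold change was -1.05 ± 0.16 (SE), with an edgeR adjusted p of 0.0106, which rose to 0.128 without control replicate 1 and 0.0745 without control replicate 2. Per kilobase of exon, Ccnb2 had the highest control level of the set, at 53.3 CPM per kb, and 25.8 CPM per kb in MC38.

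Cdk1, the kinase that both cyclins activate, did not pass. It stood at 51.4 and 56.2 CPM in control and at 42.3, 53.7, 65.2 and 43.7 CPM in MC38 replicates 1 to 4. MC38 libraries lay on both sides of the controls. The log2 fold change was -0.07, with a 95% interval from -0.53 to 0.39 and an edgeR adjusted p of 0.901. That interval does not reach the fold change of either B-type cyclin. A difference between genes was not tested.

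Ccna2, the A-type cyclin of S phase and G2, stood at 46.6 and 66.0 CPM in control and at 33.2, 28.6, 39.6 and 44.2 CPM in MC38 replicates 1 to 4 (log2 fold change -0.63, edgeR adjusted p = 0.188). The groups did not overlap, but the highest MC38 library came within a few CPM of control replicate 1. Its 3′ neighbour Exosc9 overlaps it on the opposite strand and stood at 41.7 ± 6.94 CPM in control and 28.6 ± 10.1 CPM in MC38 (SD, n = 2 and 4). Reads in the overlap may belong to either, since the strand setting of the counting is not given.

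Plk1 and Aurka, kinases of spindle formation and mitotic entry, had log2 fold changes of -0.51 and -0.36, and Cdca3, an adapter for WEE1 degradation, -0.16. The groups overlapped for Plk1, Aurka and Cdca3. For Plk1 the controls themselves stood apart, at 35.9 and 18.4 CPM, and MC38 libraries ran from 15.6 to 24.1 CPM. Without control replicate 1 its log2 fold change was 0.055. Cdc25c, the phosphatase that removes inhibitory phosphates from CDK1, was low, at 2.18 and 5.94 CPM in control and 3.56 to 8.40 CPM in MC38. Its log2 fold change was 0.51, and it was below 0 without control replicate 1.

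Of the 5 genes of the spindle checkpoint and the anaphase-promoting complex, none passed with edgeR, while 3 were lower at an unadjusted p under 0.05 and Ube2c was called by DESeq2. Ube2c, the ubiquitin-conjugating enzyme of that complex, stood at 107 and 101 CPM in control and 69.8, 73.7, 71.1 and 59.5 CPM in MC38 replicates 1 to 4. All MC38 libraries were below both controls, with a log2 fold change of -0.60 ± 0.14 (SE) and an adjusted p of 0.0686 in edgeR and 0.0104 in DESeq2. Cdc20, the activator of the complex in metaphase, stood at 83.7 and 69.8 CPM in control and 67.9, 59.2, 43.6 and 44.2 CPM in MC38 replicates 1 to 4. MC38 replicate 1 lay just under control replicate 2, with a difference of -0.51 on the log2 scale (edgeR adjusted p = 0.247).

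Bub1 and Ttk, kinases of the checkpoint, had log2 fold changes of -0.68 and -1.21 with no overlap between groups. Ttk stood at 8.99 and 12.9 CPM in control and at 2.35 to 7.77 CPM in MC38, a spread of 3.30-fold within the MC38 group. Bub1b, which encodes the checkpoint protein BUBR1, ran from 7.40 CPM in MC38 replicate 3 to 29.7 CPM in MC38 replicate 1, on both sides of its controls at 26.5 and 21.7 CPM. Its log2 fold change was -0.51.

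The chromosomal passenger complex gave 1 gene that fell of 3. Birc5 (ENSMUSG00000017716, chromosome 11:117849251-117855743) stood at 103 and 100.3 CPM in control and 56.1, 59.8, 61.5 and 59.5 CPM in MC38 replicates 1 to 4. Both groups were tight and well apart. The log2 fold change was -0.78 ± 0.13 (SE), with an edgeR adjusted p of 0.0205. Leaving out control replicate 1 gave 0.167 and control replicate 2 gave 0.103, while leaving out MC38 replicate 2 or 4 gave 0.0872 or 0.0917.

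Cdca8, which encodes borealin of the same complex, stood at 80.5 and 60.7 CPM in control and 52.1, 42.0, 35.2 and 32.5 CPM in MC38 replicates 1 to 4. The groups did not overlap, with a log2 fold change of -0.80 and an adjusted p of 0.102 in edgeR and 0.0253 in DESeq2. Aurkb, the kinase of the complex, lay the other way and did not pass. It stood at 13.3 and 27.7 CPM in control and 18.3, 22.7, 43.3 and 35.4 CPM in MC38 replicates 1 to 4. MC38 replicates 3 and 4 were the high libraries, replicates 1 and 2 lay between the controls, and the log2 fold change was 0.55, with a 95% interval from -0.35 to 1.45.

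None of the 4 kinetochore genes passed, although 3 had all MC38 libraries below both controls. Cenpa, the histone H3 variant of centromeres, stood at 141 and 106 CPM in control and 75.9, 87.5, 96.4 and 75.7 CPM in MC38 replicates 1 to 4 (log2 fold change -0.56, edgeR adjusted p = 0.121). Nuf2, a subunit of the NDC80 complex that binds microtubules, stood at 25.8 and 23.3 CPM in control and 18.7, 13.9, 12.4 and 17.8 CPM in MC38 replicates 1 to 4 (log2 fold change -0.65, edgeR adjusted p = 0.243). In both genes the highest MC38 library stayed under the lower control. The kinetochore motor Cenpe had a log2 fold change of -0.58 without overlap, and Cenpf, a large protein of the outer kinetochore, -0.18 with overlap.

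Kifc1 had the largest difference of the 33 genes and was the only one of the 5 genes in the kinesin group to pass. Kifc1 (ENSMUSG00000079553, chromosome 17:33875659-33890661) stood at 17.0 and 11.6 CPM in control and 1.82, 2.32, 1.61 and 1.55 CPM in MC38 replicates 1 to 4. These values rest on 202 and 140 reads in control and on 27, 34, 29 and 21 reads in MC38. No MC38 library came near a control. The log2 fold change was -2.96 ± 0.40 (SE, 95% interval -3.86 to -2.06), with an edgeR adjusted p of 0.00635, which was 0.127 without control replicate 1 and 0.0372 without control replicate 2.

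Kifc1 has a near copy, Kifc5b, elsewhere on chromosome 17, which shares 38.6% of the 3555 stretches of 50 bases in the Kifc1 transcripts. How reads of the shared stretches were counted is not given, so the level of Kifc1 is uncertain. Kifc5b stood at 3.17 ± 1.69 CPM in control and 3.23 ± 0.82 CPM in MC38 (SD, n = 2 and 4), with a log2 fold change of 0.02 and an edgeR adjusted p of 0.991. The Kifc5c-ps pseudogene had 0 counts in all 6 libraries.

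None of the other 4 genes of the kinesin group passed. Kif23, a motor of the central spindle, stood at 30.2 and 29.3 CPM in control and 25.6, 26.9, 23.3 and 23.6 CPM in MC38 replicates 1 to 4. The groups did not overlap, but they differed by -0.26 on the log2 scale (edgeR adjusted p = 0.543). Kif11, the motor that pushes spindle poles apart against Kifc1, stood at 18.1 and 27.5 CPM in control and 15.8, 39.3, 49.1 and 23.1 CPM in MC38 replicates 1 to 4. Those libraries lay on both sides of the controls, with a log2 fold change of 0.48 and a 95% interval from -0.46 to 1.43. Kif20a, a motor of cytokinesis, and Kif2c, a microtubule depolymerase, had log2 fold changes of -0.24 and -0.025, both with overlap.

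Spindle assembly gave 5 genes and none passed with edgeR, while DESeq2 called Nusap1. Nusap1, which bundles microtubules around chromosomes, stood at 36.8 and 41.8 CPM in control and 13.1, 22.8, 25.9 and 18.6 CPM in MC38 replicates 1 to 4. Its groups did not overlap, with a log2 fold change of -0.97 and an adjusted p of 0.111 in edgeR and 0.0340 in DESeq2. Tpx2, which activates Aurora A on the spindle, stood at 41.5 and 42.3 CPM in control and 29.2, 30.3, 16.5 and 21.6 CPM in MC38 replicates 1 to 4 (log2 fold change -0.78, edgeR adjusted p = 0.165). Hmmr, a partner of the TPX2 protein, was tight in both groups, at 21.9 and 22.0 CPM in control and 16.3 to 18.0 CPM in MC38, with a log2 fold change of -0.35. Tacc3, a centrosome protein, lay the other way at 0.33, and Ckap2, a microtubule-associated protein, had -0.09, both with overlap.

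Top2a fell and Mki67, the source of the Ki-67 protein that coats mitotic chromosomes, did not pass. Top2a (ENSMUSG00000020914, chromosome 11:98992943-99024189) stood at 137 and 141 CPM in control and 86.8, 89.6, 90.8 and 94.7 CPM in MC38 replicates 1 to 4. It had the smallest spread of the set between MC38 libraries, a coefficient of variation of 3.62%. The log2 fold change was -0.62 ± 0.12 (SE), with an edgeR adjusted p of 0.0347, which moved to 0.189 or 0.138 when control replicate 1 or 2 was left out, and to 0.125 or 0.120 when MC38 replicate 2 or 4 was.

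Mki67 stood at 143 and 133 CPM in control and 70.5, 107, 109 and 79.1 CPM in MC38 replicates 1 to 4. Its log2 fold change, -0.59, was close to that of Top2a, but MC38 replicates 1 and 4 lay well under replicates 2 and 3 (edgeR adjusted p = 0.150). Anln, the actin-binding anillin of the cleavage furrow, was the only gene grouped under cytokinesis, while Kif20a was grouped with the kinesins. Anln stood at 7.48 and 6.93 CPM in control and 3.09, 4.58, 11.7 and 11.8 CPM in MC38 replicates 1 to 4. MC38 replicates 1 and 2 were below both controls and replicates 3 and 4 above them. Its log2 fold change was 0.11, with an edgeR adjusted p of 0.945 and the largest coefficient of variation between MC38 libraries, 59.0%.

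**Figure D3:**
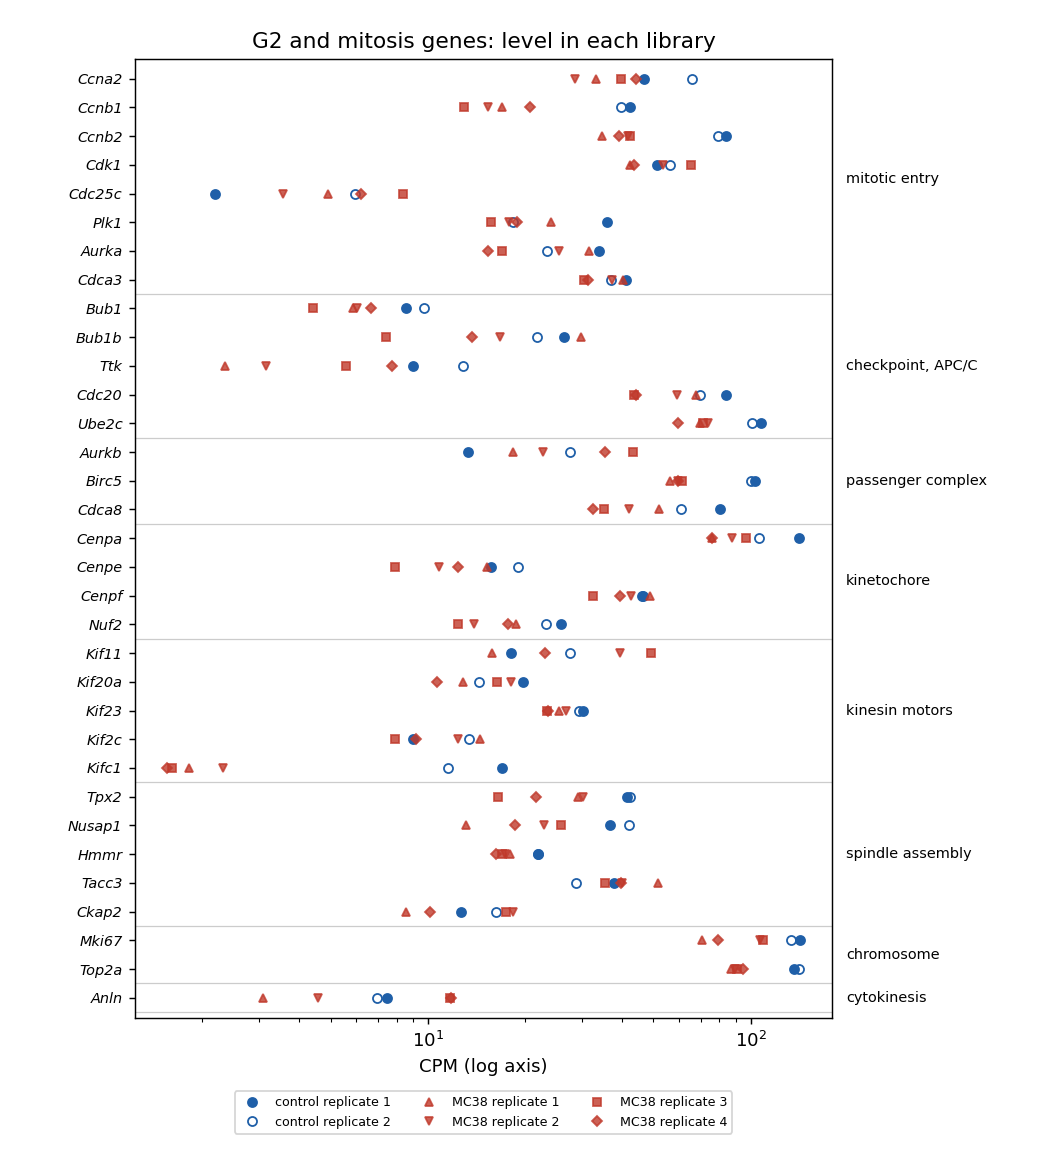
Level of each of the 33 genes in each library (horizontal axis, CPM on a log scale), grouped by role. Circles are the 2 controls and the other symbols the 4 MC38 replicates; the Kifc1 symbols of MC38 stand at 1.55 to 2.32 CPM, apart from its controls at 17.0 and 11.6 CPM.

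By role, the summed level was lower in every MC38 library than in both controls for 6 of the 7 groups with more than 1 gene. For mitotic entry it was 326 to 337 CPM in control and 220 to 232 CPM in MC38, and for the checkpoint genes 215 to 235 and 132 to 176 CPM. The passenger genes summed to 189 to 197 CPM in control and 124 to 140 CPM in MC38, and the kinetochore genes to 195 to 230 and 145 to 159 CPM. Spindle assembly genes summed to 151 CPM in both controls and 106 to 129 CPM in MC38, and the pair of Mki67 and Top2a to 275 to 279 and 157 to 200 CPM. The kinesins were the exception, at 93.9 to 96.1 CPM in control and 68.1 to 98.9 CPM in MC38, and among them Kif11 was high in MC38 replicates 2 and 3.

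The members did not follow 1 order across MC38 libraries. Of the 33 genes, 12 were highest in MC38 replicate 1, 6 in replicate 2, 9 in replicate 3 and 6 in replicate 4. In turn, 11 were lowest in replicate 1, 2 in replicate 2, 13 in replicate 3 and 7 in replicate 4. The coefficient of variation between MC38 libraries had a median of 20.7%. Between the controls, 19 genes were higher in replicate 1 and 14 in replicate 2, with a median ratio of 1.20 of the higher to the lower.

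**Figure D4:**
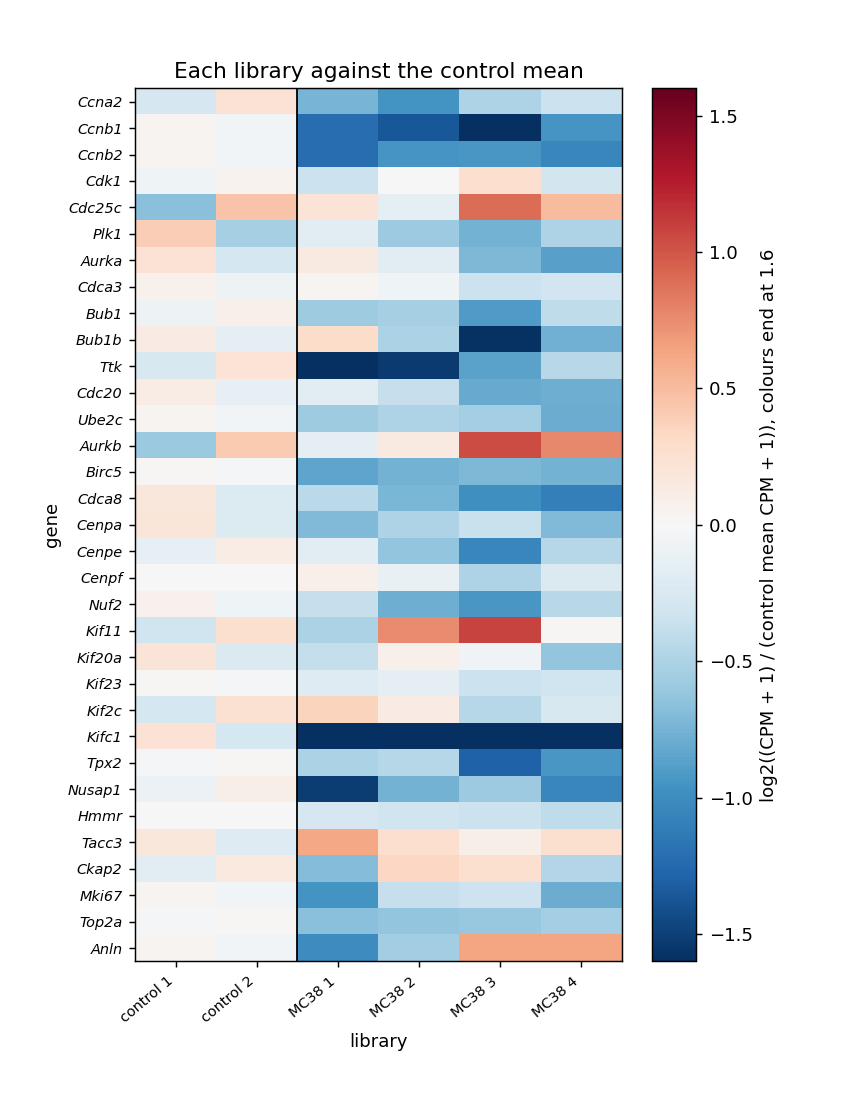
Colour map of each gene (rows) in each library (columns) as log2 of CPM + 1 over the control mean of CPM + 1; blue is below and red above the control mean. Kifc1 is dark blue in all 4 MC38 columns, while Aurkb, Kif11 and Anln are red in MC38 replicate 3 and lighter or blue in MC38 replicate 1.

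Per kilobase of exon, which puts genes on 1 scale, the highest control levels after Ccnb2 were those of Cdc20 at 41.1, Ube2c at 40.1, Birc5 at 29.9 and Cenpa at 21.2 CPM per kb. The lowest were Anln at 0.80 and Cdc25c at 0.83 CPM per kb. Kifc1 stood at 4.18 CPM per kb in control and 0.54 CPM per kb in MC38, under the level of Anln in MC38, 0.86 CPM per kb. Cdc20, Kif20a, Nusap1, Tacc3 and Cdc25c also overlap a gene on the opposite strand, so part of their reads cannot be placed with certainty. Log2 fold changes were 0.34 for Elovl1 beside Cdc20, 0.99 for Oip5 beside Nusap1, 0.31 for Cdc23 beside Kif20a and -1.67 for Gm3550 beside Cdc25c. In these pairs the signs were opposite, while Tmem129 beside Tacc3, at 0.11, had the same sign as its neighbour. Tnnc2, which overlaps Ube2c, had 0 counts in all libraries used.

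In a wider list of 79 other G2 and mitosis genes, 78 of them tested, 1 gene fell and none rose. The median log2 fold change was -0.31, and 57 of 78 lay below 0. In 26 of 78, 33.3%, every MC38 library lay below both controls, and in 6 every one lay above. Of all genes tested, 15.0% showed the first pattern and 14.0% the second. Ncapd2, a subunit of the condensin complex that compacts chromosomes, was the 1 gene that passed. It stood at 66.3 and 59.3 CPM in control and 29.3, 36.9, 31.7 and 34.9 CPM in MC38 replicates 1 to 4 (log2 fold change -0.92, edgeR adjusted p = 0.0304, with 0.223 the highest over the alternatives). The summed level of the list was 5138 CPM in both controls and 4039 to 4457 CPM in MC38.

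Regulators of the program did not pass. Of 18 genes of the DREAM, MuvB, NF-Y and p53 axis, 0 were called by edgeR, and the median log2 fold change was 0.04. At an unadjusted edgeR p under 0.05, 2 were lower and 1 higher, while 8.22% of all genes were lower at that p. The log2 fold change was below 0 in 7 of the 18 and above 0 in 11. For 2 of the 18, every MC38 library lay above both controls, and for 2 below, against 14.0% and 15.0% of all genes. Foxm1, the activator of late cell cycle genes, stood at 12.9 and 14.0 CPM in control and 6.79, 7.04, 5.95 and 5.92 CPM in MC38 replicates 1 to 4 (log2 fold change -1.07, adjusted p = 0.122 in edgeR and 0.0479 in DESeq2). Every MC38 library was thus below both controls. Cdkn1a, which encodes the CDK inhibitor p21, stood at 235 CPM in both controls and 180.2, 173, 184 and 183 CPM in MC38 replicates 1 to 4 (log2 fold change -0.39, adjusted p = 0.102 in edgeR and 0.0293 in DESeq2).

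Of 11 tested kinases and brakes of mitotic entry, 0 were called by edgeR, with a median of -0.21. At an unadjusted edgeR p under 0.05, 2 were lower and 2 higher, while 8.22% of all genes were lower at that p. Gadd45a, a stress-induced inhibitor of CDK1 and cyclin B1, stood at 74.2 and 80.5 CPM in control and 107, 108, 125 and 118 CPM in MC38 replicates 1 to 4 (log2 fold change 0.57, adjusted p = 0.0704 in edgeR and 0.00632 in DESeq2). Chek2, a DNA damage kinase, stood at 25.6 and 16.2 CPM in control and 39.5, 32.3, 38.7 and 41.9 CPM in MC38 replicates 1 to 4 (log2 fold change 0.87, adjusted p = 0.109 in edgeR and 0.0185 in DESeq2). Both stood higher in all 4 MC38 libraries than in both controls, a pattern that 14.0% of all genes showed. Gadd45a and Chek2 were the only 2 of the 11 with a log2 fold change above 0. The other 9 lay below 0. For 2 of these 9, Btg2 and Rprm, every MC38 library lay below both controls, as in 15.0% of all genes.

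The G1/S and replication genes act one stage earlier. None of 40 was called by edgeR, with 6 lower and 0 higher at an unadjusted p under 0.05, and DESeq2 called 2 lower. Their median log2 fold change was -0.27, with 35 of 40 below 0 and 15 of 40 with every MC38 library below both controls. Of all genes tested, 15.0% lay below both controls in every MC38 library. Mcm6, a subunit of the replicative helicase, stood at 159 and 144 CPM in control and 107, 109, 98.2 and 98.2 CPM in MC38 replicates 1 to 4 (edgeR adjusted p = 0.0550). Dut, which removes dUTP, stood at 172 and 139 CPM in control and 105, 116, 116 and 107 CPM in MC38 replicates 1 to 4 (edgeR adjusted p = 0.1005). The lists were not compared by a test.

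**Figure D5:**
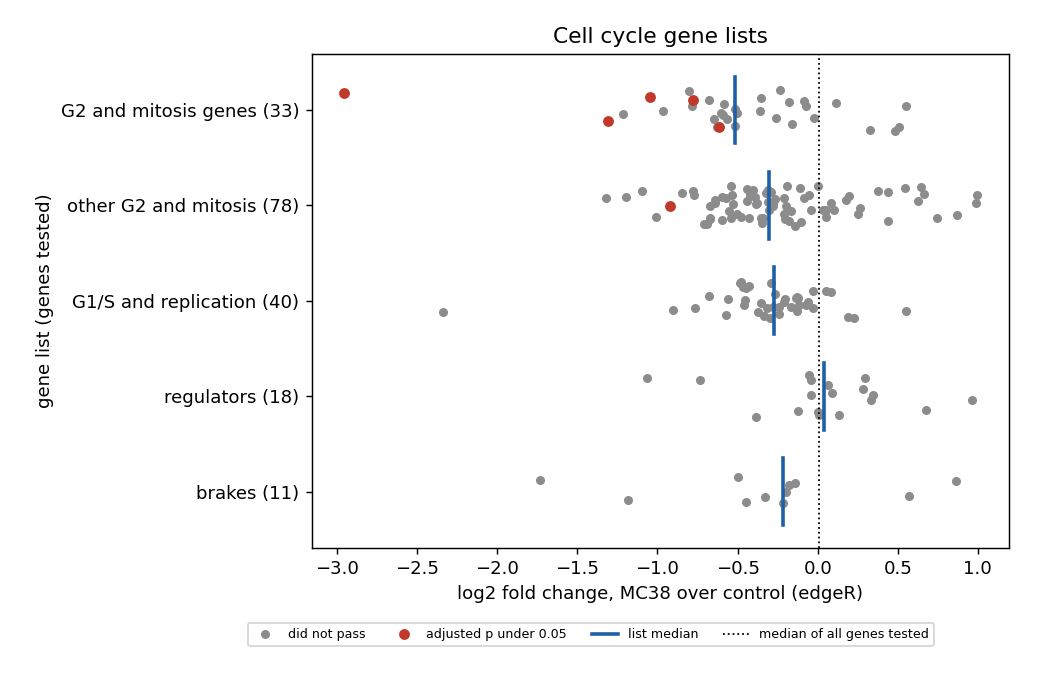
Fitted log2 fold change of MC38 over control (horizontal axis, edgeR) of each gene in the G2 and mitosis set, the wider G2 and mitosis list, the G1/S list, the regulators and the brakes (number tested in brackets). Red points passed at an adjusted p under 0.05 and blue bars are list medians, which stand at -0.51, -0.31, -0.27, 0.04 and -0.21.

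Summed levels of some other cell type lists differed between the groups. Of the 12 neutrophil genes 7 were higher and 1, Mpo, was lower in MC38 (edgeR), and none was at 0. Every MC38 library lay above both controls for 9 of the 12 and below for 3, against 14.0% and 15.0% of all genes. With these 12 genes taken out of the table, 5 of the 33 genes were still called and the median of the set was still -0.51. Taking rows out leaves the counts of the 33 genes as they were. It therefore cannot show what cells of the neutrophil lineage added to or took from their level. The macrophage list stood at 44.8 to 51.9 CPM in control and 87.0 to 99.1 CPM in MC38, with 1 of 8 genes higher, and the B lineage list at 166 to 167 and 204 to 256 CPM, with 0 of 10 called. The erythroid list, a lineage whose precursors divide fast, stood at 1557 to 1738 CPM in control and 1142 to 1548 CPM in MC38, with 0 of 12 genes called and none at 0. The plasma cell list, at 596 to 622 and 472 to 686 CPM, and the T and NK list, at 430 to 493 and 416 to 461 CPM, had 0 of 6 and 0 of 10 called. The megakaryocyte list stood at 633 to 682 CPM in control and 516 to 587 CPM in MC38, with 0 of 7 called. The basophil and mast list, with Ms4a2 at 0 in all libraries, stood at 171 to 199 and 217 to 233 CPM, with 1 of 5 higher and 1 lower. Counted by gene, the log2 fold change was above 0 in 8 of 10 T and NK genes (median 0.91). It was above 0 in 7 of 8 macrophage genes (median 1.26) and 9 of 10 B lineage genes, and below 0 in 10 of 12 erythroid genes. DESeq2 called 3 T and NK, 4 macrophage and 1 B lineage gene higher, and 0 erythroid genes. The part of these other lists in the lower level of the G2 and mitosis genes was not tested.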

How the data were processed

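Low-input RNA sequencing, derived from a single-cell protocol with 12 PCR cycles and no stated molecular identifiers, was made from sorted marrow HSCs, per the labels' protocols. The authors deposited whole-number read counts per Ensembl gene. The submitters' processing notes name HTSeq 0.10.0, STAR 2.6.1 and Trim Galore 0.5.0, and mm10 as the build. The annotation release and the strand setting of HTSeq were not given in the sources used here. Symbols and coordinates came from GENCODE for mouse on GRCm38, which named 27728 of 28786 gene IDs.

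The deposited counts of 2 control and 4 MC38 libraries were fitted in edgeR 4.0.16 under R 4.3.3 (TMM, filterByExpr, robust quasi-likelihood test, two-sided, Benjamini-Hochberg over 14226 genes, threshold 0.05). The common biological coefficient of variation was 0.366. CPM values use TMM library sizes, and intervals are at 95%. The alternatives used DESeq2 1.42.0, limma 3.58.1 voom, other scalings and filters, a replicate block, all 7 columns, and each library left out. The scripts were tested on simulated data. The members and lists were chosen with earlier results of these data known. Per-library values are given for called genes, for the 2 of smallest p in each role, and for called or the 2 leading genes of each cell cycle list; a few others were chosen after their values were seen.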

Additional observations from a re-analysis of the deposited data

How the results depend on the processing

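The count of the 33 genes called was 5 with both other scalings, a minimum of 1 CPM, voom and without the neutrophil genes (the last chosen after seeing the data). It was 7 with no filter, where Ube2c and Cdca8 were also called, 8 with DESeq2, 11 with all 7 columns, and 0 to 6 with 1 library left out. Over all genes, 229 were called (148 higher, 81 lower). With no filter this was 504 (302 and 202), with DESeq2 1028 (634 and 394), and with all 7 columns 1454 (791 and 663). Voom called 90 higher. With 1 library left out the total ran from 60 to 442, higher from 44 to 259 and lower from 16 to 183. Of the other G2 and mitosis genes 1 was called, against 4 with no filter, 2 with a minimum of 1 CPM, 5 with DESeq2, 9 with 7 columns and 0 to 3 with 1 library left out. Regulators and brakes gave 4 with DESeq2 and 5 with 7 columns, and the G1/S genes gave 1 with no filter, 2 with DESeq2, 2 with 7 columns and 0 to 1 with 1 library left out. Which cause lay behind these moves was not tested.

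Deviations of same-numbered libraries from their group correlated at 0.073 and -0.052. With 2 controls, the deviations of one mirror those of the other. These values therefore cannot show whether the shared replicate numbers pair the samples. A replicate block gave 459 calls (269 higher, 190 lower), with 5 other G2 and mitosis genes, 1 G1/S gene and 6 of the 33, and a median of -0.43 over the 33.

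Of 495 log2 fold changes (33 genes in 15 alternatives), 17 in 8 genes changed sign, none of them called. Anln was -0.094 with voom, -0.93 with the replicate block and -0.16 to 0.38 with 1 library left out. With the replicate block, Aurka was 0.010 and Kif2c 0.29. With 1 library left out, Cdc25c ran from -0.041 to 1.40, Cdk1 from -0.21 to 0.013, Ckap2 from -0.26 to 0.11, Kif20a from -0.44 to 0.013, Kif2c from -0.28 to 0.29 and Plk1 from -0.91 to 0.055. With 2 controls, leaving out 1 leaves a single control that is assumed to vary like the MC38 libraries. Kifc1, at 21 to 34 reads per MC38 library, is the least deeply counted of the 5.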
